A study of Danio rerio with 68 samples.

Results

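Livers of male zebrafish (Danio rerio) from control tanks were compared after 8 weeks and after 3 weeks of the experiment. The 10 control livers, of 68 RNA-seq libraries from brain, liver and skin, were taken by their labels: 6 were sampled after 8 weeks (3 fish of 36 months and 3 of 12 months) and 4 after 3 weeks (2 of 36 months and 2 of 12 months). Tanks of control fish, labelled as having no treatment, received DMSO, while other fish of 36 months received rotenone, an inhibitor of mitochondrial complex I, at 3.75 nM. The labels give no genotype or transgene for any group. The fish of 36 and 12 months are different fish, and 8 against 3 weeks is a difference between fish, not a series within one fish. Length of DMSO exposure, sampling day, hour of sampling and the 5 weeks of added age cannot be told apart. How many tanks were used is not stated, and p-values measure the spread between these fish.

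The liver releases plasma proteins and lipoproteins, makes glucose during fasting and stores fat after feeding. Many of its genes follow the circadian clock, in which Clock and Bmal proteins activate the period and cryptochrome repressors, Rev-erb and Ror receptors set the level of Bmal, and factors of the PAR bZIP and Nfil3 type carry the rhythm to metabolic genes. In zebrafish the clocks of peripheral organs also respond to light directly. Glucocorticoids raise gluconeogenic enzymes, insulin lowers them, and heat shock proteins fold other proteins and are induced by many forms of stress.

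From 28710443 to 47257891 counts were assigned to genes in each of the 10 livers. Hepatocyte markers, all 13 with a count in every liver, took 12.9% to 18.7% of the counts in 9 livers and 4.31% in 1 library, the 8-week liver of replicate 3 at 36 months. The same library held 2.34% of its counts in 37 intestine genes, against 0.0362% to 0.284% in the other 9, and 27 of these genes exceeded 3 times the highest of the other 9 livers. Its levels of 1281 CPM of slc15a1b, the oligopeptide transporter of the gut, 3761 CPM of fabp2, the intestinal fatty acid binding protein, and 598 CPM of mep1b, a brush border protease, stood against highest values elsewhere of 10.6, 73.4 and 0.777 CPM. High values of anpepb (1400 CPM) and rbp2a (3610 CPM) were also found there, but rbp2a, a retinol binding protein, reached 2973 CPM in another liver. Keratinocyte markers (0.313%) and T and NK cell markers (0.0284%) were likewise highest in this liver. On the first principal axis, with 32.2% of the variance, it lay at -175, and the other 9 livers lay between -25.1 and 71.1. Exocrine pancreas markers, an organ spread along the liver and gut in zebrafish, took 2.19% and 1.83% of the counts in the 3-week livers of 36 months, 1.15% in that 8-week liver and 0.028% to 0.22% in the remaining 7. CPM values, read counts divided by library size, are scaled by TMM over the 10 livers, and in such bulk samples fewer cells of a type and less RNA per cell cannot be told apart.

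**Figure D1:**
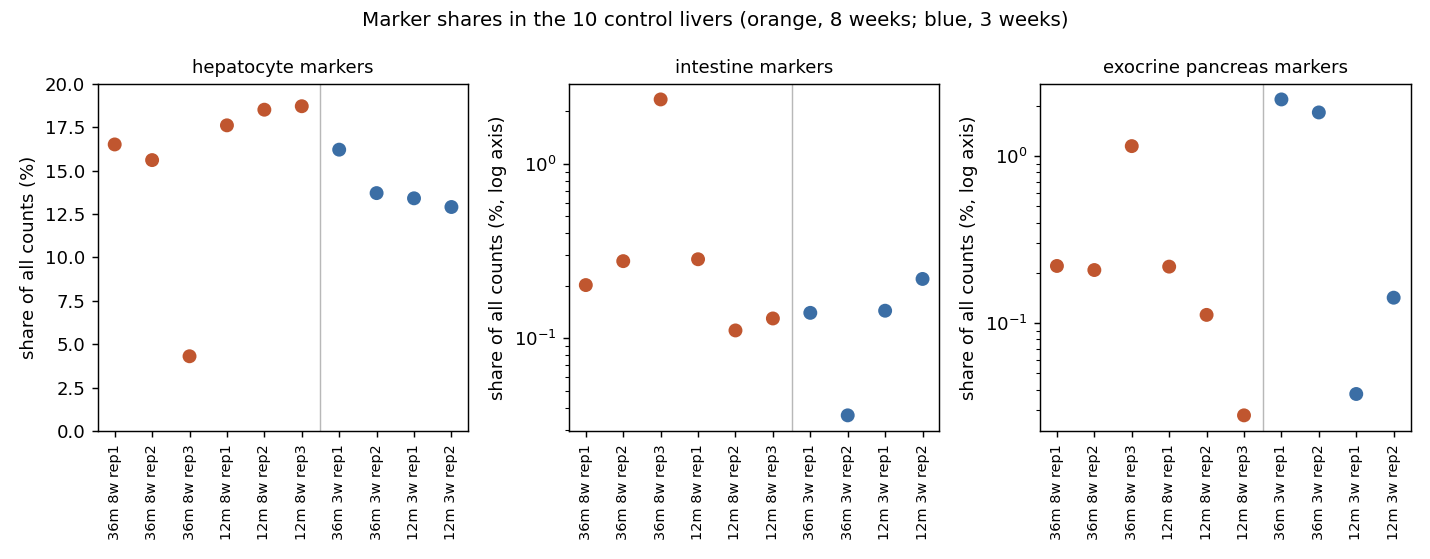
Share of all counts (%) taken by hepatocyte, intestine and exocrine pancreas markers in each of the 10 control livers, 8-week livers left in orange and 3-week livers right in blue; the intestine and pancreas panels have log axes. The 36-month 8-week replicate 3 stands at 4.31% of hepatocyte and 2.34% of intestine markers.

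Over all 10 livers no gene passed the test of 8 against 3 weeks with age as a covariate. The edgeR quasi-likelihood test of 17493 genes called 0 (0%) at a Benjamini-Hochberg adjusted p under 0.05, with a smallest adjusted p of 0.0527. An unadjusted p under 0.05 was reached by 3147 genes, 313 had an adjusted p under 0.1 (127 higher and 186 lower at 8 weeks), and DESeq2 called 1557 and voom with quality weights 1334. Leaving out 3-week replicate 1 of 36 months gave 839 calls. The values of 744 genes (4.25%) did not overlap between the groups. Without the intestine-rich 8-week liver, 493 genes rose (2.87%) and 543 fell (3.16%) of 17194, in all 1036 (6.03%), with a smallest adjusted p of 0.0157. Of these, 1029 had the same sign over 10 livers, 857 an unadjusted p under 0.05 there and 306 an adjusted p under 0.1. The 10 livers include the 9 that chose these genes, so such agreement was largely built in. The 2 groups were apart in 306 of the 1036 genes over 10 livers, where 4.25% of all genes were apart. Over 9 livers they were apart in 800 of them, where 11.3% of all genes were. The same 9 livers chose the 1036 genes, so this separation was largely built in too. In what follows "rose" and "fell" mean an adjusted p under 0.05 over these 9 livers, chosen after the data were seen. None of these calls holds over all 10 by edgeR, where DESeq2 called 697 and voom 858 of them with the same sign.

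The calls sit close to the threshold and turn on single fish. Of the 9 livers, leaving out 36-month 8-week replicate 1 or 2 left 0 and 2 calls, and the other 8-week livers, all of 12 months, left 72 to 104. Without 3-week fish, counts were 58 and 165 for the replicates of 12 months and 2314 and 863 for replicates 1 and 2 of 36 months. In a fit of all 20 livers, which added the rotenone fish to the estimate of spread, 732 genes rose and 751 fell in the controls (7.35% of 20190), 648 of them among the 1036 with the same sign.

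**Figure D2:**
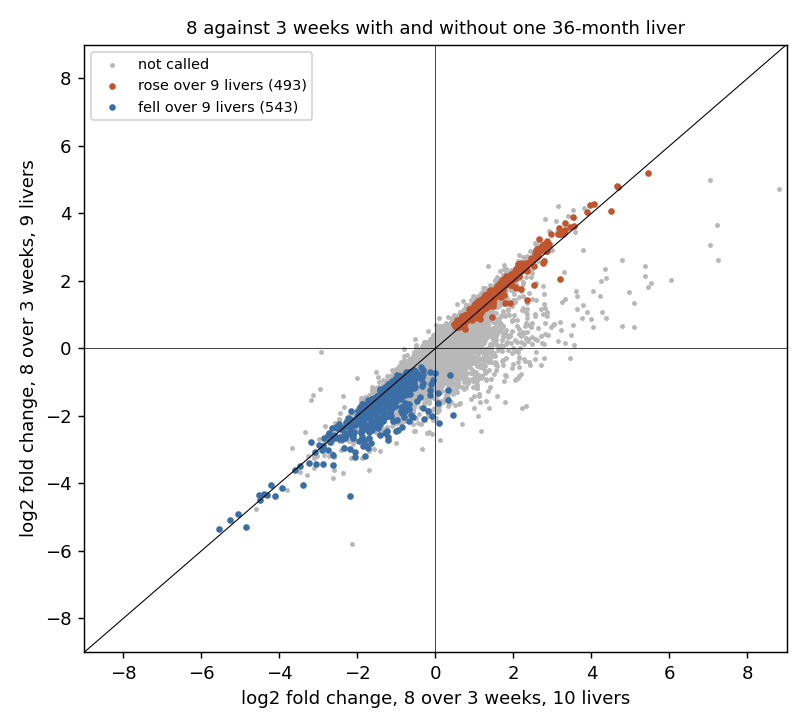
Log2 fold change of 8 over 3 weeks for each gene over the 10 livers (horizontal axis) and over the 9 livers without 36-month 8-week replicate 3 (vertical axis), with the 493 genes that rose and the 543 that fell over 9 livers coloured. Called genes lie near the diagonal, while a cloud of uncalled genes has much higher values over 10 livers than over 9.

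Ranked by p over the 10 livers, the leading genes came from metabolism, folding and cell death. The gene hif1al (ENSDARG00000041169), a hypoxia-inducible factor alpha subunit, had 252, 165 and 198 CPM in 8-week livers of 36 months and 345, 375 and 203 CPM in those of 12 months, against 41.8 and 35.5 CPM in 3-week livers of 36 months and 88.2 and 77.7 CPM in those of 12 months. Every 8-week liver lay above every 3-week liver, with a log2 fold change of 2.13 ± 0.26 (SE) over 9 livers and 2.14 over 10. For bbc3, which encodes the pro-apoptotic protein Puma, the values were 43.7, 31.6 and 30.1 CPM in 8-week livers of 36 months and 29.6, 24.4 and 14.5 CPM in those of 12 months, against 3.699 and 0.6255 CPM in 3-week livers of 36 months and 0.398 and 0.649 CPM in those of 12 months. Its groups were far apart, and the highest 3-week value came from replicate 1 of 36 months (4.79 ± 0.60 over 9 livers, adjusted p = 0.016, and adjusted p = 0.0527 over 10). Ornithine decarboxylase odc1, the first step of polyamine synthesis, fell, with 3.79, 1.74 and 5.97 CPM in 8-week livers of 36 months and 2.83, 3.01 and 4.25 CPM in those of 12 months, against 7.55 and 86.9 CPM in 3-week livers of 36 months and 88.8 and 72.1 CPM in those of 12 months. Here the same 3-week fish of 36 months lay next to the 8-week livers, and the other 3 3-week livers were far higher.

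Among the falling genes mid1ip1b, whose mammalian product activates acetyl-CoA carboxylase, had 5.16, 2.62 and 4.27 CPM in 8-week livers of 36 months and 6.19, 10.5 and 8.22 CPM in those of 12 months, against 16.1 and 92.02 CPM in 3-week livers of 36 months and 51.9 and 131 CPM in those of 12 months. The groups did not overlap, with a log2 fold change of -3.61 ± 0.53. Both copies of mthfd2, a mitochondrial folate enzyme, fell, with log2 fold changes of -1.66 and -1.92, although reads of such copies may have been shared. SPTLC2 (2 of 2), a subunit of serine palmitoyltransferase that starts sphingolipid synthesis, ranged over 8.89 to 19.4 CPM in the 8-week livers, against 32.4 to 49.8 CPM in the 3-week livers. Its small activating subunit sptssa, named from the 9 livers, had 4.16 to 5.32 CPM in the 5 other 8-week livers (11.96 CPM in 36-month replicate 3), against 9.19 to 13.3 CPM in the 3-week livers. The lipid phosphate phosphatase gene ppap2b had 4.55 to 10.6 CPM in the 8-week livers, against 15.3 to 63.1 CPM in the 3-week livers (-2.60 ± 0.25). The folding regulator ficd, which modifies the endoplasmic reticulum chaperone BiP, and the scaffold dlg3 fell with log2 values of -1.99 and -1.90. Also lower were hs3st1l2 (-2.65), a heparan sulfate sulfotransferase, tmem183a (-1.88), morn4 (-1.81) and the RNA decay factor lsm1 (-1.34).

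On the rising side, apoa4, a lipoprotein component, had 1671, 2695 and 1920 CPM in 8-week livers of 36 months and 2838, 2555 and 3426 CPM in those of 12 months, against 435 and 768 CPM in 3-week livers of 36 months and 597 and 939 CPM in those of 12 months. No 8-week liver fell within the 3-week range (1.90 ± 0.26 over 9 livers). The lipase cofactor abhd5 (log2 1.35) and the immune signalling gene LCP2 (1 of 2) (1.57) were higher too, as was FAM82A1 (1.91). Genes with the smallest p over 9 livers included ca5, a mitochondrial carbonic anhydrase, with 118 to 593 CPM in the 5 other 8-week livers (25.4 CPM in 36-month replicate 3), against 13.6 to 53.9 CPM in the 3-week livers, the mitochondrial phosphatase gene pptc7 (2.48 ± 0.28), the transcription factor tfcp2l1 (1.87 ± 0.19), MMADHC (2 of 2) for vitamin B12 handling (1.61) and mphosph8 (1.34), all higher at 8 weeks. Falls of this group included rbm4.1 (-2.17) and cyclin D1. In ca5, pptc7 and mphosph8 the intestine-rich liver lay in the 3-week range, and their adjusted p over 10 livers was 0.0788, 0.105 and 0.135. The 10 largest rises over 9 livers included the vessel growth factor gene ANGPT2 (3.38), the cardiac myosin light chain gene myl7 (4.04), celsr2 (3.64), FOLH1 (4.07) and SLITRK3 (2 of 2) (3.52). The lens crystallin gene crygm3 was among them with 0.0293 to 5.67 CPM in the 8-week livers, against 0 to 0.0925 CPM in the 3-week livers, and it is given no fold because 2 of the 4 3-week libraries held no count. FOLH1 overlapped between groups, with 0.265 to 26.9 CPM in the 5 other 8-week livers (81.1 CPM in 36-month replicate 3), against 0.209 to 1.33 CPM at 3 weeks. Levels at 3 weeks were also low for celsr2 (mean 0.251 CPM), ANGPT2 (mean 0.434 CPM) and SLITRK3 (2 of 2) (mean 0.776 CPM). The intestine-rich liver lay in the 3-week range for ANGPT2 (0.395 CPM), myl7 (1.04 CPM) and celsr2 (0.271 CPM). It had 0 CPM of SLITRK3 (2 of 2). The adjusted p of these genes over 10 livers was 0.109, 0.145, 0.0713 and 0.231. Among the 10 largest falls were 6 heat shock genes, described below, the activin subunit gene inhbab (-5.28) and fabp7b (-4.38). Levels of inhbab overlapped between groups, with 0.053 to 0.792 CPM in the 8-week livers, against 0.647 to 34.25 CPM in the 3-week livers. For fabp7b the intestine-rich liver held the highest level of all 10, and over 10 livers the log2 fold change was -2.19.

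The circadian clock moved in both directions. Of 41 clock genes tested over 9 livers, 11 rose and 3 fell, where 2.87% of all genes rose and 3.16% fell. The repressor gene cry1b had 47.02, 40.9 and 19.4 CPM in 8-week livers of 36 months and 77.3, 65.4 and 50.1 CPM in those of 12 months, against 11.1 and 6.63 CPM in 3-week livers of 36 months and 20.4 and 21.6 CPM in those of 12 months. All 8-week livers but the intestine-rich one exceeded every 3-week liver, with a log2 fold change of 1.92 ± 0.24. The Clock repressor listed as C19H1orf51 (1 of 2), ciarta in current annotation, rose to 53.2 to 102 CPM in the 5 other 8-week livers (21.3 CPM in 36-month replicate 3), against 8.601 to 24.04 CPM in the 3-week livers (2.28 ± 0.33). Light-inducible cry5, a photolyase relative, fell, with 3.02 to 5.95 CPM in the 8-week livers, against 8.60 to 27.6 CPM in the 3-week livers (-1.90 ± 0.38). The other cryptochrome and period genes did not pass, per1a with 1.24, per2 with -1.09 and per1b with 0.05 on the log2 scale (-0.03 over 10 livers). Among the activators clock had 8.53, 8.54 and 18.2 CPM in 8-week livers of 36 months and 10.3, 3.30 and 6.96 CPM in those of 12 months, against 3.05 and 1.78 CPM in 3-week livers of 36 months and 2.35 and 1.52 CPM in those of 12 months. Its highest value came from the intestine-rich liver, its groups did not overlap, and it rose by 1.81 ± 0.35 over 9 livers. The Bmal gene arntl1b rose too, with 4.601 to 8.76 CPM in the 8-week livers, against 2.14 to 5.25 CPM in the 3-week livers and overlapping groups.

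The Rev-erb gene nr1d2a, which represses Bmal, had 155, 193 and 128 CPM in 8-week livers of 36 months and 299, 240.4 and 197 CPM in those of 12 months, against 13.9 and 17.8 CPM in 3-week livers of 36 months and 122 and 100.4 CPM in those of 12 months. The 3-week fish of 36 months were several times lower than those of 12 months, and all 8-week livers were higher than both (2.13 ± 0.46). Its paralogue nr1d2b rose by 0.85 ± 0.21, and rorab, a Ror receptor that activates Bmal, by 1.48 ± 0.37. For rorab the intestine-rich liver, at 33.9 CPM, lay within the 3-week range of 10.7 to 55.6 CPM. In all, 3 of 9 Rev-erb and Ror genes rose and none fell, nr1d1 staying at 0.78 (adjusted p = 0.205). Of 9 PAR bZIP and Nfil3 genes 4 rose and 2 fell. The activators hlfa (1.02 ± 0.19), tefb (1.25 ± 0.24) and dbpb (1.15 ± 0.28) rose, while tefa fell (-1.47 ± 0.35). For tefa the intestine-rich liver, at 69.4 CPM, lay within the 3-week range of 38.5 to 131.6 CPM. For dbpb, at 6.41 CPM, it lay below every 3-week liver (8.60 to 20.5 CPM). The repressor genes nfil3 and nfil3-2 moved in opposite directions, with 1.41 to 4.02 CPM in the 5 other 8-week livers (7.57 CPM in 36-month replicate 3), against 6.26 to 18.2 CPM in the 3-week livers for nfil3 and 5.75 to 19.5 CPM in the 8-week livers, against at most 5.24 CPM in the 3-week livers, for nfil3-2.

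Among glucocorticoid-responsive and gluconeogenic genes, more rose than fell, where 2.87% of all genes rose and 3.16% fell. The list of 27 glucocorticoid-responsive genes had 3 that rose, none that fell and a median log2 fold change of 0.96 over 9 livers, beside -0.03 for all genes. Among them tsc22d3, which encodes the anti-inflammatory protein Gilz, had 1017, 721 and 420.2 CPM in 8-week livers of 36 months and 899.7, 1039 and 824 CPM in those of 12 months, against 173 and 87.4 CPM in 3-week livers of 36 months and 242 and 218 CPM in those of 12 months. The groups did not overlap in either set of livers, and it rose by 2.33 ± 0.28 (adjusted p = 0.0157). The transcription factor gene zbtb16a had 28.5, 32.4 and 18.5 CPM in 8-week livers of 36 months and 32.01, 29.8 and 44.4 CPM in those of 12 months, against 15.9 and 3.85 CPM in 3-week livers of 36 months and 2.43 and 0.941 CPM in those of 12 months. It rose by 3.05 ± 0.72, with the 3-week replicate 1 of 36 months nearest to the 8-week livers. The growth inhibitor gene sesn1 rose by 1.28 ± 0.31.

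Of 47 gluconeogenesis and amino acid catabolism genes, 8 rose and 1 fell (median 0.53), beside 2.87% and 3.16% of all genes. Glucose-6-phosphatase g6pca.2, which releases free glucose, had 4206, 3233 and 707 CPM in 8-week livers of 36 months and 6262, 5056 and 5047 CPM in those of 12 months, against 508 and 212 CPM in 3-week livers of 36 months and 1736 and 544 CPM in those of 12 months. The 5 other 8-week livers were above every 3-week liver and the intestine-rich one was not, and it rose by 2.75 ± 0.44. Its copy g6pca.1 rose by 1.15 ± 0.19, and gpt2l, an alanine transaminase, by 0.90 ± 0.17. The coactivator gene ppargc1b fell, with 8.896 to 16.6 CPM in the 5 other 8-week livers (30.3 CPM in 36-month replicate 3), against 23.3 to 34.2 CPM in the 3-week livers. PDK2 (1 of 2), a kinase that turns off pyruvate dehydrogenase in fasting, had 405, 262 and 257 CPM in 8-week livers of 36 months and 572, 452 and 392 CPM in those of 12 months, against 80.8 and 14.9 CPM in 3-week livers of 36 months and 11.7 and 35.8 CPM in those of 12 months. Its 3-week range lay below every 8-week liver, by 3.61 ± 0.64 on the log2 scale. The triglyceride lipase gene PNPLA2 rose to 14.2 to 50.5 CPM in the 5 other 8-week livers (3.26 CPM in 36-month replicate 3), against 0.892 to 7.06 CPM in the 3-week livers, and abhd5 above encodes its cofactor. Among 34 genes of growth hormone, IGF and insulin signalling 4 rose and none fell. The insulin receptor substrate irs2 had 23.3 to 64.4 CPM in the 8-week livers, against 2.35 to 14.9 CPM in the 3-week livers, the receptor gene insra rose by 1.49 ± 0.34, the IGF carrier gene IGFALS by 1.41 ± 0.31 and the growth hormone feedback gene socs2 by 1.88 ± 0.43.

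Fuel genes did not all move one way, where 2.87% of all genes rose and 3.16% fell. Of 32 fatty acid oxidation genes 3 rose and none fell (median 0.37): cpt1b, the gate of fatty acid entry into mitochondria, by 2.03 ± 0.49, the lipid-sensing receptor gene pparaa by 1.22 ± 0.29 and the electron carrier gene etfdh by 0.76 ± 0.15. Of 27 genes for fatty acid and triglyceride synthesis 3 rose and 1 fell. The acetyl-CoA carboxylase gene acacb had 143 to 266 CPM in the 8-week livers, against 25.2 to 74.9 CPM in the 3-week livers (1.87 ± 0.37), while the elongase gene elovl1b fell by 1.59 on the log2 scale. The triglyceride synthase gene dgat1a (1.76) and the carbohydrate-responsive factor gene MLXIPL (1.43) rose. In glycolysis, 2 of 24 genes rose and 2 fell. Pyruvate kinase PKLR, the liver form, had 1943 to 5185 CPM in the 5 other 8-week livers (473 CPM in 36-month replicate 3), against 464 to 1149 CPM in the 3-week livers and pgam2 rose by 1.26 ± 0.28, while hk1 (-1.96) and ldha (-2.09) fell. The intestine-rich liver held 447 CPM of ldha, and over 10 livers its log2 fold change was -0.30, and 0.11 in the fit of 20 livers.

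Of 30 genes for cholesterol synthesis and uptake 1 rose and 2 fell (median -0.03 over 9 livers and -0.46 over 10). Of 86 xenobiotic metabolism genes 4 rose and 2 fell. Over all genes 2.87% rose and 3.16% fell, and the counts of both lists are not far from these shares. The sulfotransferase genes sult2st2 and sult2st1 rose, with 64.3 to 119 CPM in the 5 other 8-week livers (39.8 CPM in 36-month replicate 3), against 24.8 to 44.5 CPM in the 3-week livers for sult2st2. The P450 reductase gene por (-0.83) and the vitamin D hydroxylase gene cyp2r1 (-2.96) fell. Of 19 genes of bile acid synthesis and transport none passed, nr1h4, the bile acid receptor, having 1.03 (adjusted p = 0.0533).

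The gene tfa for transferrin, the iron carrier of plasma, had 61700, 56960 and 8188 CPM in 8-week livers of 36 months and 80150, 82860 and 104700 CPM in those of 12 months, against 42030 and 39680 CPM in 3-week livers of 36 months and 37060 and 32840 CPM in those of 12 months. The intestine-rich liver was the lowest of all 10 and the other 8-week livers exceeded every 3-week liver, for a log2 fold change of 0.98 ± 0.21 over 9 livers and 0.67 over 10. The apolipoprotein B gene apobl rose by 1.12 ± 0.23 and the complement gene c8a by 0.73 ± 0.18. In all, 2 of 44 hepatocyte plasma protein genes and 1 of 45 complement and coagulation genes rose and none fell, shares near the 2.87% of all genes that rose. The share of hepatocyte markers was 17.4 ± 1.31% (SD, n = 5) at 8 weeks without the intestine-rich liver and 14.1 ± 1.46% (SD, n = 4) at 3 weeks (exact permutation test over 126 splits, two-sided, p = 0.0317, and 0.179 after adjustment over 15 marker lists). With that liver the share at 8 weeks was 15.2 ± 5.46% (SD, n = 6, exact permutation p = 0.79). That liver held the lowest hepatocyte share of all 10 (4.31%), so leaving it out in itself raised the 8-week share. The test over 9 livers cannot be separated from that choice. The mRNAs encoded by mitochondrial DNA were all higher in the fitted values, 13 of 13, at a median log2 fold change of 0.93, and 3 of them rose. The respiratory chain gene mt-cyb had 7374, 5915 and 4748 CPM in 8-week livers of 36 months and 5671, 6563 and 8983 CPM in those of 12 months, against 2666 and 2275 CPM in 3-week livers of 36 months and 3049 and 5482 CPM in those of 12 months. The intestine-rich 8-week liver lay below replicate 2 of 12 months at 3 weeks, with no other overlap, and mt-cyb rose by 1.04 ± 0.26, mt-nd5 by 1.06 ± 0.25 and mt-nd6 by 0.95 ± 0.21. Of the nuclear genes for complex I, 2 of 41 rose, NDUFA3 by 0.63 and NDUFC2 by 0.89 on the log2 scale. For complexes II to V, 1 of 55 rose (cox5b2, 0.79) and 1 fell (cox8a, -1.16). These nuclear counts are not far from the 2.87% of all genes that rose and the 3.16% that fell.

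Immediate early and cell death genes rose in part, where 2.87% of all genes rose and 3.16% fell. Of 32 immediate early genes, which respond within minutes to many signals, 5 rose and 1 fell, with a median of -0.08 beside -0.03 for all genes. The AP-1 gene junbb had 270.0, 218 and 48.8 CPM in 8-week livers of 36 months and 659, 389 and 219 CPM in those of 12 months, against 59.8 and 28.9 CPM in 3-week livers of 36 months and 39.5 and 27.99 CPM in those of 12 months. The intestine-rich liver, at 48.8 CPM, was within the 3-week range and the others were above it (3.09 ± 0.45). The antiproliferative gene btg2 had 19.4, 15.01 and 18.97 CPM in 8-week livers of 36 months and 148, 60.5 and 29.7 CPM in those of 12 months, against 4.16 and 2.002 CPM in 3-week livers of 36 months and 6.91 and 10.1 CPM in those of 12 months. Fish of 12 months had the highest 8-week values and none overlapped with 3 weeks (2.89 ± 0.50). The genes csrnp1a and csrnp1b rose by 2.79 ± 0.42 and 1.49 ± 0.27. Of 31 p53 target and apoptosis genes 4 rose and 1 fell, among them bbc3 and btg2 above and the cyclin gene ccng2 (1.90 ± 0.45), while CASP8 (2 of 2) fell by 1.47 on the log2 scale. The autophagy kinase gene ulk1a had 120.2, 58.4 and 47.98 CPM in 8-week livers of 36 months and 128, 30.6 and 49.5 CPM in those of 12 months, against 17.6 and 3.13 CPM in 3-week livers of 36 months and 1.61 and 1.91 CPM in those of 12 months. All 8-week values were higher, and replicate 1 of 36 months was the highest at 3 weeks (4.25 ± 0.80). With atg13 (0.70), it made 2 that rose of 38 autophagy and lysosome genes.

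Of 31 cytosolic heat shock genes 12 fell and 2 rose (median -0.79), where 3.16% of all genes fell and 2.87% rose. The inducible chaperone gene hsp70.3 had 4.32, 2.96 and 0.814 CPM in 8-week livers of 36 months and 1.56, 3.93 and 5.08 CPM in those of 12 months, against 14.6 and 235 CPM in 3-week livers of 36 months and 6.72 and 327 CPM in those of 12 months. Replicate 2 of each age was by far the highest at 3 weeks. The 8-week livers were at or under 5.08 CPM, the other 3-week fish lay not far above that, and the log2 fold change was -5.36 ± 1.12. The copies hsp70.1, hsp70.2 and hsp70l, which share much sequence so that their reads may be split, fell, with log2 fold changes of -4.89, -5.08 and -4.05. The Hsp90 gene hsp90aa1.2 had 4.37, 3.88 and 3.18 CPM in 8-week livers of 36 months and 4.29, 3.08 and 5.25 CPM in those of 12 months, against 10.02 and 300.0 CPM in 3-week livers of 36 months and 7.99 and 94.04 CPM in those of 12 months. Its pattern was that of hsp70.3, and hsp90aa1.1 fell by 4.32 on the log2 scale. The Hsp110-type gene hspa4a was apart in all livers, with 18.3 to 39.6 CPM in the 8-week livers, against 88.4 to 578 CPM in the 3-week livers, and so was the small heat shock gene hspb6, with 0.117 to 0.674 CPM in the 8-week livers, against 1.02 to 2.92 CPM in the 3-week livers. The constitutive gene listed as zgc:63663, hsc70 in current annotation, rose by 1.59 ± 0.28. Peroxiredoxin prdx1, which removes peroxides, fell, with 16.9, 11.9 and 23.2 CPM in 8-week livers of 36 months and 6.35, 18.1 and 10.9 CPM in those of 12 months, against 72.9 and 97.5 CPM in 3-week livers of 36 months and 40.2 and 35.1 CPM in those of 12 months. All 3-week values exceeded all 8-week values, and txnrd1, which regenerates thioredoxin, fell by 0.92 on the log2 scale, as the called genes of 34 for antioxidant and glutathione enzymes.

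Of 52 cell proliferation genes tested, 18 fell and none rose, where 3.16% of all genes fell and 2.87% rose. Their median log2 fold change was -1.77 over 9 livers and -1.11 over 10, and 51 of 52 were below 0. Cyclin D1 (ccnd1), which drives entry into the cell cycle, had 5.401, 6.17 and 13.5 CPM in 8-week livers of 36 months and 6.16, 7.06 and 10.3 CPM in those of 12 months, against 20.1 and 20.3 CPM in 3-week livers of 36 months and 21.4 and 23.5 CPM in those of 12 months. Every 3-week liver was at 20.1 CPM or more and every 8-week liver below that (-1.65 ± 0.19, adjusted p = 0.0157, and 0.0824 over 10 livers). The replication clamp gene pcna had 7.78, 4.66 and 49.1 CPM in 8-week livers of 36 months and 5.94, 11.5 and 4.55 CPM in those of 12 months, against 23.8 and 30.3 CPM in 3-week livers of 36 months and 56.4 and 17.1 CPM in those of 12 months. The intestine-rich liver was at 3-week levels and the 5 others were lower (-2.23 ± 0.40). The methylation maintenance gene uhrf1 (-2.42 ± 0.45) and the replication licensing gene MCM3 (2 of 2) (-2.89 ± 0.54) fell likewise, at levels of only 0.259 to 7.80 CPM. Ribosome biogenesis genes had a median of -0.71 with 47 of 50 below 0, and 2 passed: myca, the Myc factor that drives growth, fell, with a log2 fold change of -2.42, as did imp4 with -1.46. Cytosolic ribosomal protein genes had 81 of 82 above 0 with a median of 0.23, and none passed. Macrophage markers took 0.00787% to 0.0315% of the counts in the 5 other 8-week livers, 0.0782% in the intestine-rich one and 0.0151% to 0.12% in the 3-week livers, and their part in the proliferation result was not tested.

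**Figure D3:**
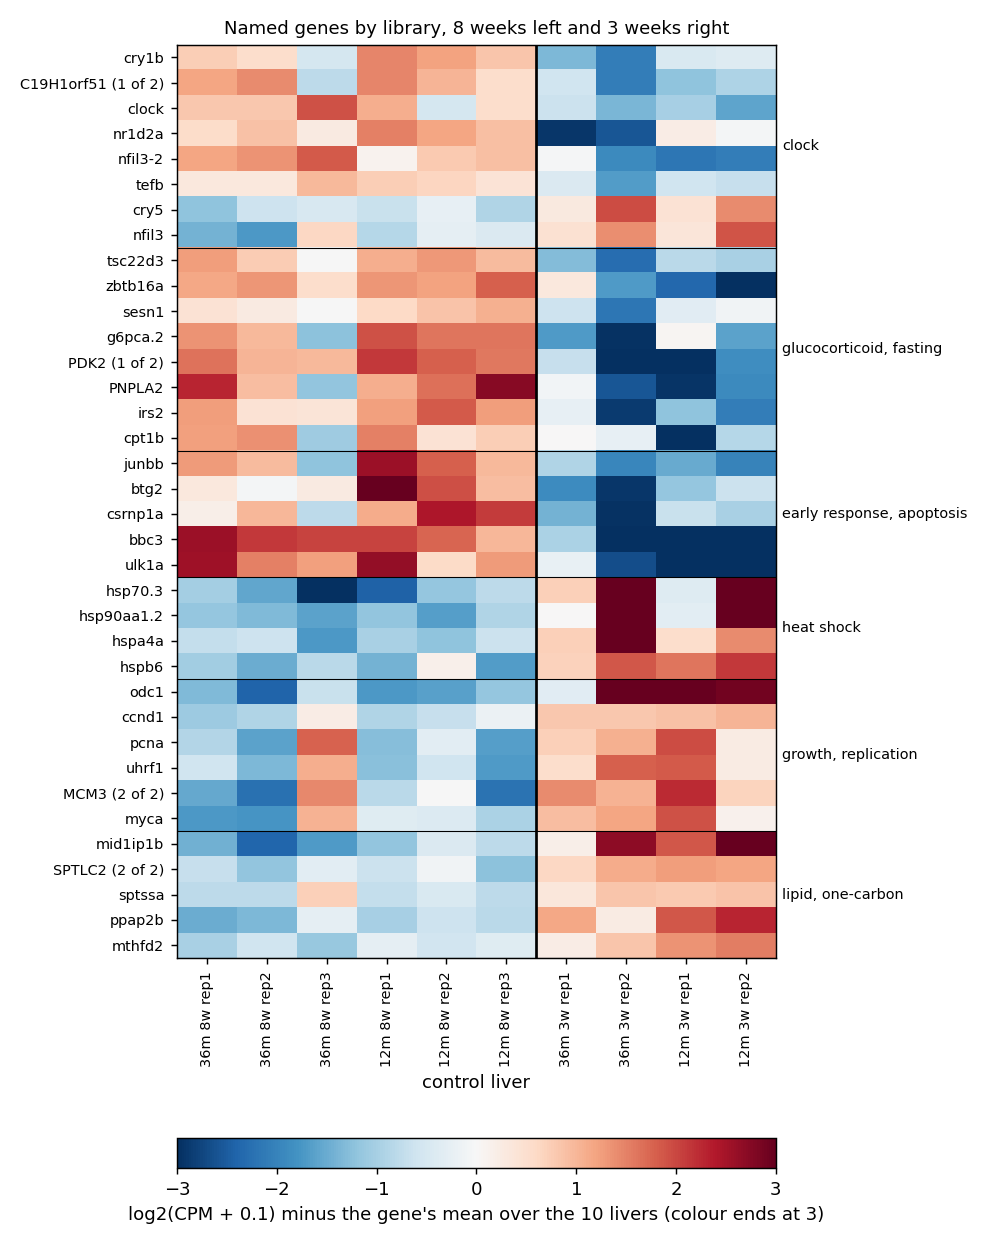
Levels of 36 named genes in each control liver, as log2(CPM + 0.1) minus the gene's mean over the 10 livers, with 8-week livers left and 3-week livers right of the line. Heat shock genes are high in replicate 2 of both ages at 3 weeks, and 36-month 8-week replicate 3 departs from the other 8-week livers for pcna, junbb and g6pca.2.

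Several further lists had no called gene over 9 livers, and cell type lists had few, where 2.87% of all genes rose and 3.16% fell. The vitellogenin and estrogen receptor list, yolk genes that males normally keep low, had the highest median (2.33 over 9 genes), yet vtg1 overlapped between groups, with 0.247 to 43.1 CPM in the 8-week livers, against 0.759 to 6.78 CPM in the 3-week livers (adjusted p = 0.0559). The 45 interferon-responsive genes had a median of 0.00 and rsad2 a log2 fold change of 2.07 (adjusted p = 0.0852). The acute phase list had a median of -0.11, with hp, the haptoglobin gene, at -2.81 (adjusted p = 0.0629). Of 53 proteasome genes 45 were below 0 (median -0.31; psmd10 -1.16, adjusted p = 0.0511), and of 32 endoplasmic reticulum stress genes 19 were (ddit3 0.80, adjusted p = 0.0518). Of 23 amino acid response genes the 2 that fell were the mthfd2 copies above, and of 19 mitochondrial chaperone genes none passed. Antigen presentation genes had a median of -0.44 over 9 livers and 0.00 over 10. Of 12 bile duct markers krt18 and krt8, the simple epithelial keratins, fell, with 174 to 370.2 CPM in the 8-week livers, against 492 to 1127 CPM in the 3-week livers for krt18. The summed share of the 12 markers was 0.143 ± 0.0203% (SD, n = 5) at 8 weeks and 0.355 ± 0.104% (SD, n = 4) at 3 weeks (exact permutation p = 0.00794, the smallest this test allows, and 0.119 after adjustment over 15 lists), and 0.412% in the intestine-rich liver. With that liver the share at 8 weeks was 0.188 ± 0.111% (SD, n = 6, exact permutation p = 0.0667, and 0.57 after adjustment). From other cell types, lrata, of vitamin A storing stellate cells, rose by 1.78 ± 0.37, nccrp1, a marker of neutrophils here, fell (-1.03), and so did acta1a of muscle (-1.56). Markers of macrophages, T and NK cells, B cells, endothelium, exocrine and endocrine pancreas, erythrocytes, germ cells, keratinocytes and intestine had no called gene.

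**Figure D4:**
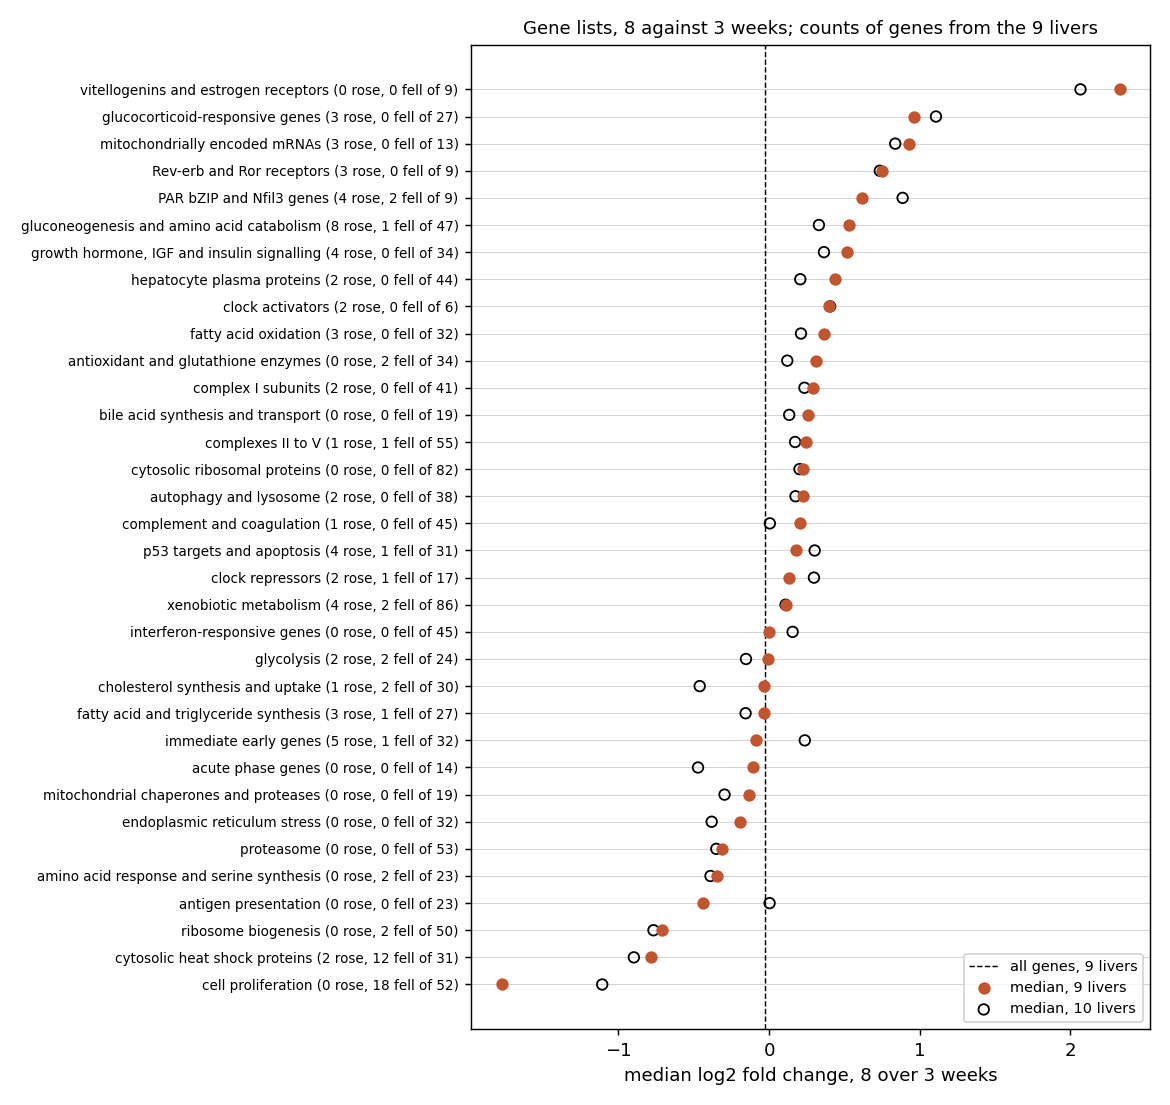
Median log2 fold change of 8 over 3 weeks for each list of genes other than cell type markers, over the 9 livers (filled) and the 10 livers (open), with the number of genes that rose and fell over 9 livers. Cell proliferation and heat shock lie lowest over both sets of livers, and vitellogenins and glucocorticoid-responsive genes highest.

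Each age alone gave no call by edgeR over the 10 livers. The time effect at 36 months had 2009 genes and that at 12 months 2459 genes with an unadjusted p under 0.05, where DESeq2 called 353 and 934. The difference of the time effect between 36 and 12 months had 0 called genes, 992 at an unadjusted p under 0.05 and 48 called by DESeq2. With the intestine-rich liver left out, the edgeR counts at 36 months, at 12 months and for the difference were 7, 5 and 2. Without 3-week replicate 1 of 36 months they were 269, 45 and 3, and 101 genes were called at 12 months without replicate 2 of 36 months. Values for nr1d2a over 9 livers were 3.46 at 36 months and 1.14 at 12 months, and for zbtb16a 1.62 at 36 months and 4.37 at 12 months. For hsp70.3 they were -5.10 at 36 months and -5.57 at 12 months, and for tsc22d3 2.73 at 36 months and 2.00 at 12 months. Whether such pairs differ is answered only by the test of the difference, in which these genes did not pass over 10 livers. Over the 9 livers of these values, tsc22d3 (adjusted p = 0.79) and hsp70.3 (0.974) did not pass the edgeR test of the difference. The 2 genes called for the difference over 9 livers both had a more positive effect at 36 months, so zbtb16a was not among them. For nr1d2a that test is given here over 10 livers only.

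Livers of rotenone fish of 36 months, 6 at 8 weeks and 4 at 3 weeks, share no library with the controls. There, in the fit of 20 livers, 628 genes rose and 1239 fell (9.25% of 20190), and 1039 and 795 were called without 3-week rotenone replicate 1 or 2. Of the 1036 genes called in the 9 control livers, 226 were called there with the same sign and 9 with the opposite sign; the 226 are 21.8% of the control calls and 12.1% of the 1867 rotenone calls. The same sign was seen for 82.1% of the control calls and for 65.1% of all 17194 genes. Heat shock and replication genes fell in both, with 18 of 34 heat shock and 21 of 59 proliferation genes falling in the rotenone livers. For hsp70.3 these livers had 0.4301 to 2.67 CPM (median 1.17) at 8 weeks and 14.3, 177, 4.04 and 1.11 CPM at 3 weeks, a log2 fold change of -5.08 beside -5.36 in the 9 controls. At 3 weeks 1 rotenone liver lay within the 8-week range and the others above it. For hspa4a the rotenone value was -4.53 and for prdx1 -4.14. Rotenone livers also had falls of 33 of 53 proteasome genes and 16 of 30 cholesterol genes.

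The test of the difference between rotenone and control livers of 36 months called 14 genes (0.0693%), and 3 of these belong to the clock. Over the 20 livers together, the Rev-erb gene nr1d1 had 0.943 to 1.999 CPM (median 1.75) in 6 rotenone livers and 32.4, 38.8 and 18.7 CPM in 3 control livers at 8 weeks. At 3 weeks it had 16.5, 7.97, 17.6 and 21.3 CPM in rotenone livers and 7.59 and 16.1 CPM in control livers. The groups were far apart at 8 weeks and overlapped at 3 weeks. On the log2 scale nr1d1 fell by 3.25 ± 0.32 in rotenone livers. In controls of 36 months alone it had 1.39 ± 0.47, estimated in a fit of the 10 control livers (0.74 over both ages). The difference in the fit of 20 livers was -4.58 (adjusted p = 0.0131). The period gene per1a had 0.645 to 2.302 CPM (median 1.22) in rotenone livers and 25.2, 24.2 and 10.04 CPM in controls at 8 weeks, and 11.2, 8.73, 1.64 and 8.69 CPM in rotenone livers and 5.02 and 4.58 CPM in controls at 3 weeks. Its time effects were -2.45 in rotenone livers and 2.08 in controls of 36 months (adjusted p of the difference = 0.0371). Over the 10 control livers of both ages it was 1.18. The second Rev-erb gene nr1d2a had 17.4 to 72.3 CPM (median 45.6) in rotenone livers and 155, 192 and 116 CPM in controls at 8 weeks, and 72.3, 34.1, 53.05 and 145 CPM in rotenone livers and 13.5 and 18.5 CPM in controls at 3 weeks. Its time effects were -0.77 in rotenone livers and 3.32 in controls of 36 months (adjusted p of the difference = 0.0371). Over the 10 control livers of both ages it was 2.14. In contrast the time effects of clock were 1.43 in rotenone livers and 2.28 in controls of 36 months, and the difference did not pass (adjusted p = 0.649). It rose in the rotenone livers and, by 1.81, in the 9 controls of both ages. The other 11 called genes were named for this test after their values were seen. Their direction is that of the 8 against 3 week effect, not of the level in rotenone livers. This effect was lower in rotenone than in control livers for rxraa, DAPK1, dlg5a and rnls. It was higher for lrp1, THBD, TFR2 (2 of 2), FP236606.1, scarf1, RALGAPA2 and ANKRD50 (1 of 2). These calls turn on single fish. The count was 69 without the intestine-rich liver and 4 without either other 8-week control, and 45 and 0 without 3-week control replicates 1 and 2. It was 2, 4, 23 and 2 without rotenone replicates 1 to 4 at 3 weeks, and 9 and 3 without rotenone replicates 2 and 5 at 8 weeks.

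**Figure D5:**
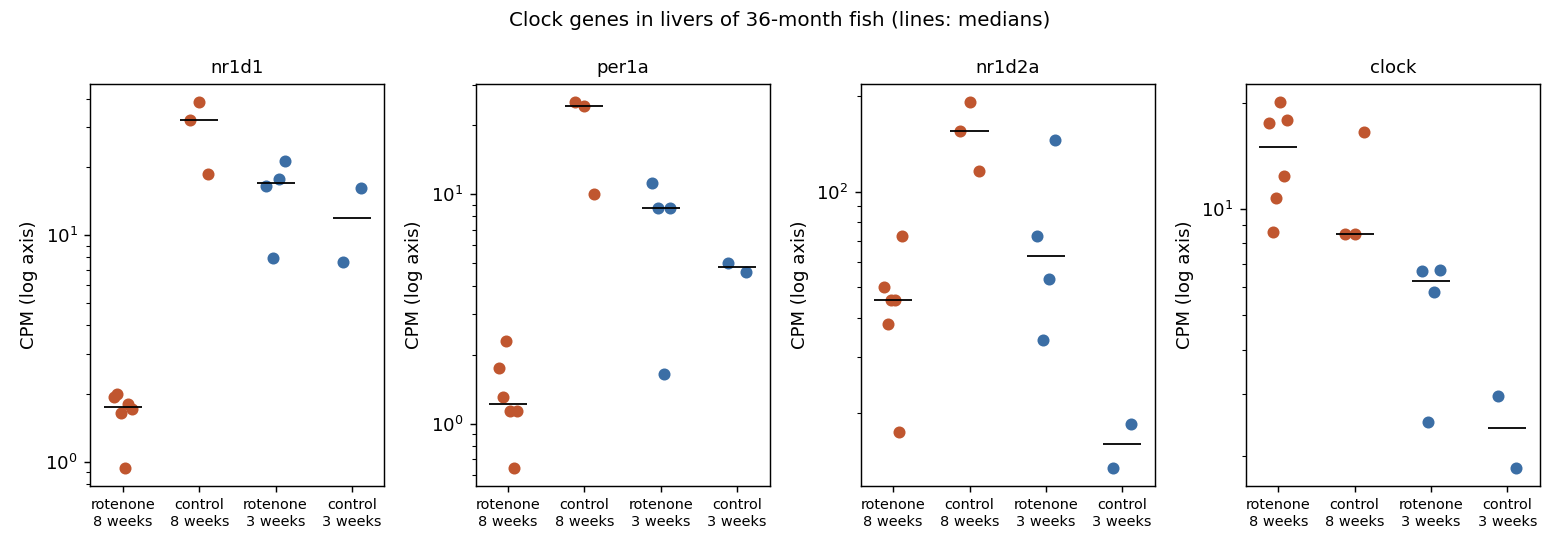
CPM (log axis, scaled over 20 livers) of nr1d1, per1a, nr1d2a and clock in rotenone and control livers of 36 months at 8 weeks (orange) and 3 weeks (blue), 1 point per fish, lines at medians. The 6 rotenone livers at 8 weeks lie below all 3 control livers at 8 weeks for nr1d1, per1a and nr1d2a.

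Brain and skin libraries share the fish numbers of the livers and were tested in a fit of 36 control libraries. In brain controls no gene rose and 4 fell (0.0163% of 24503), and in skin controls 118 rose and 277 fell (1.61%). The 4 brain genes were ddb2, nr1d2b, cry3 and cry-dash, which belong to light-responsive DNA repair, Rev-erb and cryptochrome genes. For nr1d2b the brain effect was -0.91 ± 0.17 and the liver effect over 9 livers 0.85. In skin, nfil3-2 (1.85), clock (1.26) and arntl1b (0.55) rose, as they did in the 9 livers. Skin also had rises of cry2a (0.72), cry2b (0.78), arntl1a (0.63), nfil3-5 (0.94) and rorcb (1.36) and a fall of dbpa (-1.16), clock genes that did not pass in liver. Outside the clock, sesn1 and PDK2 (1 of 2) rose in skin, by 0.86 and 1.65. Of the 1036 genes called in the 9 livers, 72 were called in skin with the same sign and 5 with the opposite sign, and none in brain. The same sign was found in skin for 79.5% of them and 63.2% of all genes, and in brain for 42.1% and 49.5%. The test of liver minus brain called 1958 genes (7.99%), and 1693 (6.91%) with the fish, taken from the number shared by the tissues' labels, as a block. Liver minus skin called 765 (3.12%), but only 246 (1%) with the fish as a block. Without the intestine-rich liver the counts were 3145 against brain and 2013 against skin. Among single genes, per1a differed between liver and brain with an adjusted p of 0.000387 in the blocked fit, cry1b with 0.00088 and bbc3 with 1.46e-05. Against skin, bbc3 (0.00241), hif1al (0.0138), btg2 (0.00267) and g6pca.2 (0.0391) passed in the blocked fit, while clock (0.218) and hsp70.3 (0.14) did not.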

How the data were processed

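Total RNA from zebrafish brain, liver and skin was sequenced, and the authors deposited 1 table of raw counts per gene and 1 of RPKM values (reads scaled for gene length and library size). The submitters' processing notes name CASAVA 1.8.2. For aligner, counter, strand and build the entry is "not given in the sources used here", so overlapping, antisense and near-identical genes are uncertain. The deposited RPKM values were read and not tested; no levels are compared between genes. The 10 control livers held 28710443 to 47257891 counts each.

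Counts were tested with edgeR 4.0.16 in R 4.3.3 (quasi-likelihood, TMM, filterByExpr with a minimum count of 10 and a total of 15, age as a covariate), two-sided, with Benjamini-Hochberg adjustment over all genes tested and a threshold of 0.05. The test was checked on simulated counts. DESeq2 1.42.0, voom in limma 3.58.1, RLE factors, other filters, a replicate block and each library left out were tried. Standard errors are those of the log2 fold change. CPM use TMM factors. The comparisons by age, treatment and tissue used contrasts of groups.

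Named genes were those with the smallest p, largest changes and highest levels, and up to 4 per list. Since no gene passed over 10 livers, the rule was applied to the 9 livers also, after the data were seen, and the 20 smallest p over 10 livers were added. Members and lists were chosen with earlier results of these data known. Replicate numbers did not pair the libraries (correlations of deviations -0.136 to 0.0912). Fish numbers shared by the tissues were taken as the same fish. Results for a few genes are not reported here.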

Additional observations from a re-analysis of the deposited data

Results flagged for a closer look

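In a gap test of single samples, applied to 70 groups, 12 groups held a sample far from the others. The chance rate of about 1 in 20 is for unrelated groups of like samples, so this count cannot be set against it. Marker shares of a library are parts of the same total, and each group mixes both ages. Most of the flags also came from the intestine-rich liver, which had already been singled out. The flags are therefore a description only. The ratio of the gap to the range was 0.788 for the hepatocyte share at 8 weeks (lowest in 36-month replicate 3). The same liver was the highest at 8 weeks for intestine (0.922), exocrine pancreas (0.8291), keratinocytes (0.757), bile duct cells (0.821), endothelium (0.76), macrophages (0.664) and T and NK cells (0.902). At 3 weeks, replicate 1 of 36 months was the highest for endocrine pancreas (0.896) and skeletal muscle (0.892) and the lowest for odc1 (0.915), and replicate 2 of 36 months was the lowest for keratinocytes (0.885).

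The time effect differed between rotenone and control livers of 36 months for 14 genes, between liver and brain controls for 1958 genes and between liver and skin controls for 765 genes, each by the edgeR test of the difference.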

How the results depend on the processing

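Of the 20 genes with the smallest p over 10 livers and the 118 named from 9 livers, none reversed its direction under the alternatives run for each set. In the fit of all 20 livers, run only for the first set, ldha, which fell over 9 livers, had a log2 fold change of 0.11. Over the 10 livers the count of 0 was 0 with RLE factors, a mean CPM filter, no age term or the replicate block, 12 without a filter, 1557 with DESeq2, 1334 with voom, 1483 in the fit of 20 livers and 313 at a threshold of 0.1 (0 to 1036 with each library left out). Over 9 livers the 1036 became 3277 with DESeq2 and 2344 in the fit of 19 livers. By edgeR over the 9 livers it became 0 to 2314 with each library left out. DESeq2, run on all 10 livers, called 934 genes at 12 months, 353 at 36 months and 48 for their difference. By edgeR each of these counts was 0 over 10 livers. With each library left out, the edgeR counts were 0 to 101, 0 to 269 and 0 to 3. With DESeq2 the 1867 of the rotenone livers became 2975, and the 14 of rotenone minus control became 406. By edgeR the 1867 became 795 to 2252 with each rotenone library left out. The 14 became 2 without rotenone replicate 1 at 3 weeks and 69 without the intestine-rich liver. Without the intestine-rich liver, liver minus brain called 3145 and liver minus skin 2013. With the fish as a block, liver minus skin called 246. The replicate numbers did not pair the fish; with the replicate block the 9 livers gave 8 calls, the rotenone livers 142 and rotenone minus control 0, and the 10 livers 0. The cause of these moves was not tested. Of 118 genes named from the 9 livers, none passed over 10 livers by edgeR. Over the 9 livers 118 passed with DESeq2 and with RLE factors, 107 with voom and 4 with the replicate block. These fits use the same libraries that chose the genes. Without 36-month 8-week replicate 1 or 2, 0 of 117 still passed by edgeR, and 28 to 112 did without each of the other livers.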
